A study of Mus musculus with 15 samples.

Results

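NRF2 is a transcription factor that switches on genes against oxidative stress, and the genes described here are 10 of its classical targets: Nqo1, Hmox1, Gclc, Gclm, Srxn1, Txnrd1, Me1, Gsta4, G6pdx and Slc7a11. Every probe set that the platform annotation assigns to one of these symbols alone was taken, which gave 18 probe sets of 45037 for 9 of the 10 genes. No probe set carried the symbol G6pdx in the annotation used here, so G6pdx was not analysed. Expression was measured on 15 Affymetrix arrays of cells cut out of frozen mouse lung sections by laser capture microdissection. All mice carried the K-RasG12V knock-in allele, and all lungs had received an adenovirus carrying Cre recombinase 3 months earlier. Normal lung cells gave 8 arrays, H1 hyperplastic lesions 3 and H2 hyperplastic lesions 4. Lesions held about 500 cells and were recognised by a colour marker expressed from the mutant allele, and normal cells came from the same sections. The sources used here give neither the number, age and strain of the animals nor the basis of the division into H1 and H2. Regions of the same animal may lie within or across groups, so p-values over these arrays may be too small or too large.

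In resting cells the adaptor Keap1, with the ubiquitin ligase scaffold Cul3, marks NRF2 (gene Nfe2l2) for destruction. Oxidants and electrophiles block Keap1, and NRF2 then pairs with small Maf proteins on antioxidant response elements in the DNA, where Bach1 can act as a competing repressor. The targets make glutathione, reduce thioredoxin, supply NADPH and clear quinones and haem. Mouse lung is exposed to oxygen and inhaled chemicals, and the pathway is well known in airway and alveolar cells and in lung adenocarcinoma.

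Of the 9 measured targets, Me1 and Gsta4 were called higher in H2 lesions in the main fits. The other 7 were called in none of the 4 comparisons of those fits. All values are log2 signals, 1 unit being a doubling, and a gene with several probe sets is represented by that with the highest mean. In H2 the enzyme Me1 was 5.48-fold higher than in normal cells and Gsta4 4.65-fold. Gclc differed by 1.38 ± 0.45 (SE) without passing (limma adjusted p = 0.0934). Nqo1, Hmox1, Gclm and Slc7a11 averaged under 3.99 over all arrays, where 3.99 is the median of the means of all probe sets. A gene was called at a limma adjusted p under 0.05 over 18193 genes. On that rule 2 of the 9 targets were called higher in H2, where 2.89% of all genes were, and 0 were called lower (0.495% of all genes). Of 15 fits that left out 1 array, Me1 kept its call in 12 and Gsta4 in 5. Both lost it with each covariate described below.

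**Figure D1:**
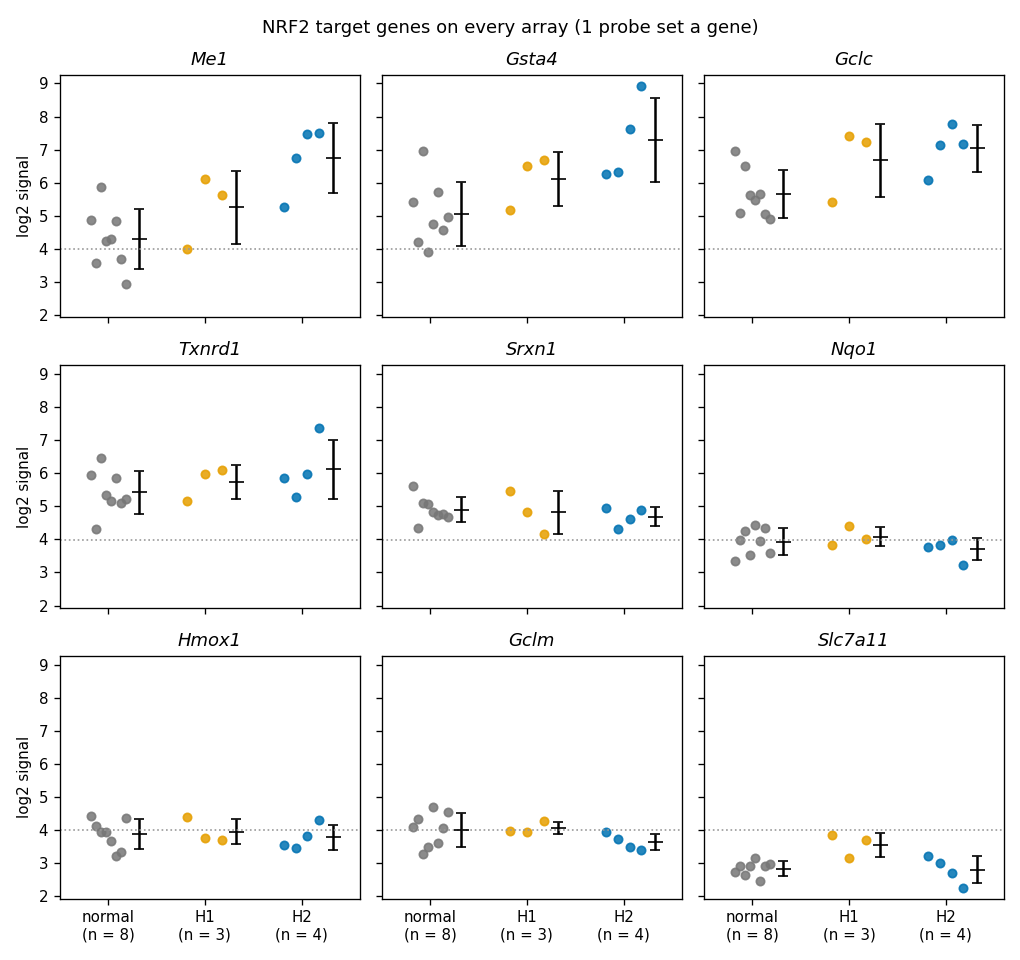
Log2 signal of the 9 measured NRF2 targets on each array (y axis) by group (x axis), 1 probe set a gene. Points are arrays, the bar and whiskers beside them the mean and SD, and the dotted line is the median of all probe set means (3.99). Me1 reached 5.26 to 7.49 in H2 against 2.95 to 5.87 in normal cells, while Nqo1, Hmox1, Gclm and Slc7a11 stayed near or under the line.

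The arrays differed in ways that moved with the groups. The spread of each array, taken as the SD over its gene values, ranged from 1.14 to 1.67 in normal cells, 1.31 to 1.49 in H1 and 1.52 to 1.78 in H2. The Actb 3′ to 5′ difference of the array controls ranged from -1.60 to -0.03 in normal cells, -1.21 to -0.04 in H1 and -0.29 to 0.25 in H2. That of Gapdh was 1.55 to 3.25, 2.26 to 2.94 and 2.66 to 4.58 in the same order. Markers of alveolar type 2 cells, which make surfactant, were higher in H2 for 11 of 11 measured genes, with a median difference of 2.01. Their summed log2 level ranged from 9.79 to 14.94 in normal cells, 13.57 to 14.74 in H1 and 14.38 to 15.05 in H2. Alveolar lung tissue showed in Sftpc (type 2 cells, mean 9.94 in normal cells and 11.35 in lesions) and Ager (type 1 cells, 8.64 and 9.30, with 8.34 in H1 and 10.02 in H2). Of the 9 type 1 markers, 7 were lower in all lesions (median -0.33), 8 in H1 (median -0.69) and 5 in H2 (median -0.20). The ciliated marker Foxj1 (2.35 and 2.36) and the club cell marker Scgb1a1 (3.36 and 3.31) were under 3.99. The summed club marker level was 6.58 to 9.25 in normal cells, 6.61 to 7.37 in H1 and 6.63 to 7.33 in H2. By limma 1 of the 6 club markers was called higher in H2 (2.89% of all genes). Alveolar macrophage markers were higher in H2 for 8 of 10 genes, with summed levels of 8.17 to 12.74 in normal cells and 11.32 to 12.50 in H2, but Marco averaged 4.31 in normal cells and 3.86 in H2. Endothelial markers were lower in H2 for 9 of 12 genes, with summed levels of 8.29 to 10.92 in normal cells, 8.42 to 9.01 in H1 and 8.37 to 8.90 in H2. How far these differences take part in the results that follow was looked at only through the covariates named there. Array spread and the type 2 level are computed from the same gene values and averaged highest in H2. Fits with them therefore cannot tell an array difference from a difference between the groups. In such samples a change in the share of a cell type and a change in RNA per cell cannot be told apart.

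Me1 is the cytosolic malic enzyme, which makes NADPH, the reducing power that glutathione and thioredoxin recycling consume. Its probe set 1416632_at had a lowest, median and highest value of 2.95, 4.26 and 5.87 in normal cells. The H1 arrays read 4.00, 6.12 and 5.63 (replicates 2, 3 and 4), and the H2 arrays 5.26, 6.75, 7.47 and 7.49 (replicates 1, 5, 6 and 7). All H2 arrays but replicate 1 lay above every normal array, and H1 replicate 2 lay below the normal median. The difference was 2.45 ± 0.54 in H2 (limma adjusted p = 0.0243) and 0.96 ± 0.60 in H1 (adjusted p = 0.997), and between H1 and H2 it was -1.50 ± 0.67 (adjusted p = 0.389). All lesions against normal gave 1.81 ± 0.51 (adjusted p = 0.143). The other probe set, 1430307_a_at, moved less, with a difference of 0.91 ± 0.37 in H2 and 0.72 ± 0.41 in H1 (limma adjusted p over all probe sets 0.207 and 0.999). On it H2 replicate 1 read 3.66, below the other H2 arrays at 5.55, 5.76 and 5.59.

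Gsta4 encodes a glutathione transferase that clears 4-hydroxynonenal, an aldehyde formed when lipids oxidise. Its probe set had a lowest, median and highest value of 3.90, 4.87 and 6.95 in normal cells. H1 replicates 2, 3 and 4 read 5.16, 6.49 and 6.68, and H2 replicates 1, 5, 6 and 7 read 6.27, 6.31, 7.63 and 8.93. Normal replicate 3, at 6.95, lay above all H1 arrays and above 2 of the 4 H2 arrays, and every other normal array was below all of H2. The difference was 2.22 ± 0.56 in H2 (limma adjusted p = 0.0422), 1.05 ± 0.62 in H1 (0.997), 1.72 ± 0.50 in all lesions (0.166) and -1.17 ± 0.70 between H1 and H2 (0.491). Tested over all probe sets in place of genes, the H2 difference had a limma adjusted p of 0.0518 and did not pass.

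The calls of both genes moved with the array measures. With array spread as a covariate the H2 difference was 1.00 ± 0.36 for Me1 and 0.75 ± 0.41 for Gsta4 (limma adjusted p = 0.232 and 0.46). Adjusted for the type 2 marker level, an alternative added once the data had been seen, it was 1.65 ± 0.51 and 1.40 ± 0.54 (adjusted p = 0.153 and 0.266). Me1 kept its call in 12 of 15 fits that left out 1 array and lost it without H2 replicate 5, 6 or 7, with differences from 2.20 to 2.95 over the 15. Gsta4 kept its call in 5 of the 15, with differences from 1.67 to 2.56, and lost it without normal replicate 2, 4, 5, 7 or 8, H1 replicate 3 or 4, or H2 replicate 5, 6 or 7.

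Glutathione is made from cysteine in a rate-limiting step by glutamate cysteine ligase, whose catalytic subunit is Gclc and whose modifier subunit is Gclm. Gclc probe set 1455959_s_at had a lowest, median and highest value of 4.91, 5.55 and 6.96 in normal cells. H1 replicates 2, 3 and 4 read 5.40, 7.40 and 7.23, and H2 replicates 1, 5, 6 and 7 read 6.07, 7.14, 7.77 and 7.18. In each subtype 1 array fell within the normal range, H1 replicate 2 and H2 replicate 1, and the other 5 lesions were above every normal array. The difference was 1.38 ± 0.45 in H2 (limma adjusted p = 0.0934), 1.02 ± 0.49 in H1 (0.997) and 1.23 ± 0.37 in all lesions (0.178). The other Gclc probe set gave 1.50 ± 0.61, 1.39 ± 0.67 and 1.46 ± 0.50 in the same order. Without H1 replicate 2, the lesion array of narrowest spread (1.31) and lowest type 2 marker level (13.57), all lesions against normal passed for Gclc (1.47, adjusted p = 0.0409) and Me1 (2.16, adjusted p = 0.0305).

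Gclm, the partner of Gclc, stayed low. The means of its probe set 1439050_at were 4.01 ± 0.52 (SD, n = 8) for normal cells, 4.05 ± 0.18 for H1 (n = 3) and 3.64 ± 0.24 for H2 (n = 4). The H2 difference was -0.38, with a 95% interval from -0.92 to 0.17, and that of Gclc was 0.44 to 2.33. The other Gclm probe set averaged 3.12, 3.31 and 3.07 in normal cells, H1 and H2.

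Slc7a11 imports cystine, the source of cysteine for glutathione. Its probe set 1443536_at had a lowest, median and highest value of 2.46, 2.90 and 3.16 in normal cells, and H1 replicates 2, 3 and 4 read 3.84, 3.14 and 3.68. H2 replicates 1, 5, 6 and 7 read 3.22, 3.00, 2.71 and 2.26. Here H1 rather than H2 was the higher subtype, as for 5 of the 9 targets in all (45.0% of all genes). H1 differed from normal by 0.72 ± 0.23 (limma adjusted p = 0.997) and from H2 by 0.76 ± 0.26 (adjusted p = 0.325), neither past the threshold. All these signals are in the low range, and the other Slc7a11 probe set differed by 0.02 in H1 and by -0.18 in H2.

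The 2 targets of the thioredoxin arm, Txnrd1 and Srxn1, were called in no comparison. Txnrd1, the cytosolic enzyme that reduces thioredoxin, had a lowest, median and highest value of 4.33, 5.29 and 6.47 in normal cells on probe set 1421529_a_at. H1 replicates read 5.15, 5.99 and 6.09, and H2 replicates 5.84, 5.27, 5.99 and 7.35, so that H2 replicate 7 alone exceeded the normal range. The H2 difference was 0.68 ± 0.39 (limma adjusted p = 0.33) and the H1 difference 0.32 ± 0.44 (0.997). Probe set 1424486_a_at read 5.75, 5.19 and 5.67 in H2 replicates 5, 6 and 7 but 3.49 in replicate 1, and 3.24 to 4.44 in H1. H1 and H2 differed there by -1.20 ± 0.52 (limma adjusted p over all probe sets = 0.405).

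Srxn1, which restores overoxidised peroxiredoxins, had 4 probe sets that did not move together. The highest, 1451680_at, had means of 4.89 ± 0.38 (SD, n = 8) for normal cells, 4.82 ± 0.65 for H1 (n = 3) and 4.69 ± 0.29 for H2 (n = 4). Probe set 1426875_s_at read 4.59, 5.13, 4.69 and 4.80 in H2 against 4.06, 3.55 and 4.46 in H1, so that the subtypes did not overlap. It was 1 such probe set of 18 where 16.9% of all probe sets did not overlap between H1 and H2. Its difference of -0.78 ± 0.27 did not pass (limma adjusted p over all probe sets = 0.356), and its normal arrays spanned 3.89 to 4.92. Against normal cells it differed by 0.51 ± 0.22 in H2 (limma adjusted p over all probe sets = 0.229).

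Nqo1, which reduces quinones, and Hmox1, which breaks down haem and is also high in stressed macrophages, are widely used readouts of NRF2. The means of Nqo1 were 3.93 ± 0.41 (SD, n = 8) for normal cells, 4.08 ± 0.29 for H1 (n = 3) and 3.70 ± 0.33 for H2 (n = 4). Hmox1 averaged 3.88 ± 0.44, 3.95 ± 0.37 and 3.78 ± 0.38 in the same order. The H2 differences were -0.23 for Nqo1 (95% interval -0.73 to 0.27) and -0.09 for Hmox1 (-0.64 to 0.45), and the H1 differences 0.15 and 0.07. The interval of Me1 in H2 was 1.31 to 3.60. Each had 1 probe set, with signals of 3.21 to 4.45 for Nqo1 and 3.23 to 4.43 for Hmox1 over all arrays.

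**Figure D2:**
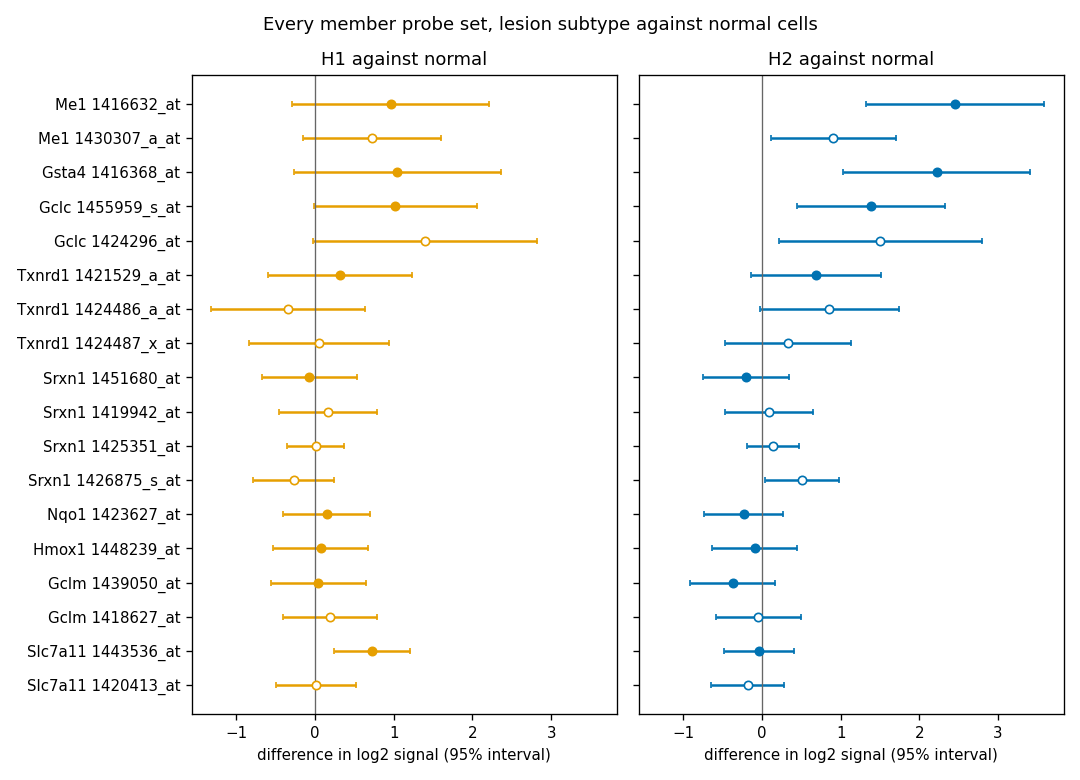
Difference in log2 signal from normal cells (x axis) for each of the 18 target probe sets (y axis), in H1 on the left and H2 on the right. Points are limma estimates with 95% intervals, filled where the probe set stands for its gene. The intervals of Me1, Gsta4 and Gclc lie above 0 in H2, and those of Nqo1, Hmox1 and Gclm include 0 in both subtypes. The interval of Srxn1 1426875_s_at also lies above 0 in H2, and that of Slc7a11 1443536_at in H1.

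Counted over the list, 4 of 9 targets were higher and 5 lower in H2, with a median difference of -0.04 that equals the median of all genes (-0.04). In H2 2 were called by limma, where 3.38% of all genes were called in either direction, and with Gclc added to these, 3 were higher at an unadjusted p under 0.05 (12.7% of all genes) and 0 lower (8.7% of all genes). In H1, 8 of 9 were higher with a median of 0.32 (all genes -0.05), and 0 were called by limma (0.011% of all genes), with 1 higher (1.85% of all genes) and 0 lower (2.39% of all genes) with an unadjusted p under 0.05. In all lesions the median was 0.29 (all genes -0.06) and 0 were called by limma (0.291% of all genes), with 3 higher (8.1% of all genes) and 0 lower (4.66% of all genes) below 0.05 before adjustment. H1 against H2 called 0 targets by limma (0.0055% of all genes), with 1 higher (4.9% of all genes) and 1 lower (7.41% of all genes) below 0.05 before adjustment. The groups overlapped for all 9 targets in each comparison. Among all genes, 3.79% did not overlap between H2 and normal, 1.4% between H1 and normal, 0.225% between all lesions and normal and 18.2% between H1 and H2. Of the 18 probe sets, limma called 1 in H2, Me1 1416632_at (2.04% of all probe sets). It called 0 in all lesions (0.169% of all probe sets), 0 in H1 (0.00222%) and 0 in H1 against H2 (0%).

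The gene of the regulator itself was also called in H2. Nfe2l2, which encodes NRF2, had values of 4.23 to 7.23 in normal cells, with a mean of 5.46 ± 1.17 (SD, n = 8). H1 replicates 2, 3 and 4 read 5.18, 7.15 and 7.40, and H2 replicates 1, 5, 6 and 7 read 7.19, 8.50, 9.15 and 8.52. Only normal replicate 3, at 7.23, reached the level of an H2 array. Nfe2l2 rose in H2 by 2.88 ± 0.60 (limma adjusted p = 0.0202) and differed by 1.12 ± 0.67 in H1 (0.997), with -1.76 ± 0.75 between H1 and H2 (adjusted p = 0.372). With array spread as a covariate the H2 difference was 1.27 (limma adjusted p = 0.175) and with the type 2 marker level 1.92 (0.123). Of 15 fits without 1 array, 12 kept the call, and those without H2 replicate 5, 6 or 7 did not. Its other probe set differed by -0.03 in H2.

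Of the partners of NRF2, Keap1 averaged 3.67 in normal cells and 4.41 in H2, a difference of 0.74 ± 0.39 (limma adjusted p = 0.289). Bach1, the repressor, read 5.60, 7.28, 5.96 and 6.39 in H2 against 4.33 to 6.17 in normal cells, with a difference of 1.12 ± 0.40 (adjusted p = 0.13), and its other probe set differed by -0.17. Cul3 differed by 2.86 ± 0.78 in H2 (limma adjusted p over all probe sets = 0.0688), and its other probe sets by -0.09 to 1.25. Across the 14 regulator genes, 1 was called higher in H2 (2.89% of all genes) and 0 lower (0.495% of all genes). The median difference of these regulators was 0.31 (all genes -0.04).

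For each target, the gene with the closest pattern over the 15 arrays was found by Pearson r, as a description. The arrays share their spread and cell content, so these values carry no test. Me1 lay nearest to Tfrc, the transferrin receptor (r = 0.96), and Nfe2l2, chosen after its value was seen, came next (r = 0.96). Gclc lay nearest to Erp29 (r = 0.94), Gsta4 to Golm1 (r = 0.95) and Txnrd1 to Ppib (r = 0.93). For these 4 the closest other target had r of 0.87 to 0.91, the highest being that of Me1 with Gclc. The low-signal targets lay nearest to Platr22 (Nqo1, r = 0.77), Slc15a4 (Hmox1, r = 0.87), Tpmt (Gclm, r = 0.91) and Clmn (Slc7a11, r = 0.86), and Srxn1 to Pex5l (r = 0.88). Their closest other target reached r of only 0.29 to 0.50.

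**Figure D3:**
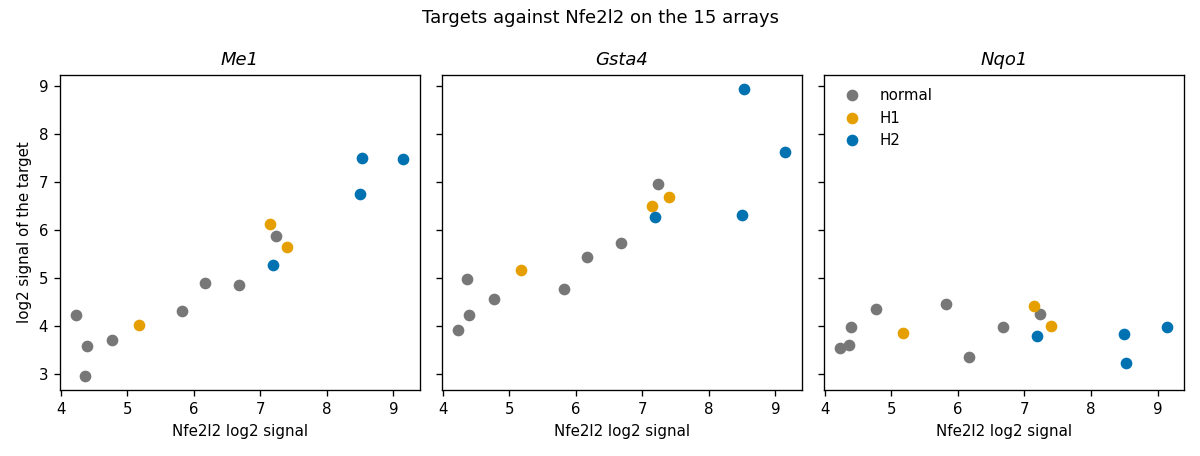
Log2 signal of Me1, Gsta4 and Nqo1 (y axes) against that of Nfe2l2 (x axis) on the 15 arrays, coloured by group. Arrays with Nfe2l2 above 8 were all H2 and had the 3 highest Me1 values (6.75 to 7.49), whereas Nqo1 stayed between 3.21 and 4.45 over the whole range of Nfe2l2.

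The promoters of the targets were read to see which carry the letters of an antioxidant response element near the start. Sequences of 250 bases before to 50 after a start were from RefSeq (GRCm38.p6), which gave 10 promoters for 7 of the 10 genes, Nqo1, Gclm, Srxn1, Txnrd1, Me1, G6pdx and Slc7a11. The core searched was TGACNNNGC on both strands, where N is any base, and 12.4% of all 32851 promoters of that length hold it. It was found in 5 of the 7 genes, in 1 promoter of each, among the 10 promoters searched. The 12.4% is a share of promoters, so the count per gene cannot be set against it. The 4 matches in genes measured here are shown as 30-base stretches, 5′ to 3′ on the strand of the gene, with the match in capitals.
Me1, chr9:86695901-86695930, minus strand: gatgccgccgTGACTCAGCgcttctcgcgg
Gclm, chr3:122245413-122245442, plus strand: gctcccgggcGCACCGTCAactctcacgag
Srxn1, chr2:152105542-152105571, plus strand: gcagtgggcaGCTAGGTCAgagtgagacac
Txnrd1, chr10:82859104-82859133, plus strand: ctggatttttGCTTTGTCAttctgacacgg
The match of Me1 lies across its start, and its letters TGACTCAGC also hold the overlapping AP-1 core TGANTCA. This joint form occurs in 0.454% of all promoters, and the AP-1 core in any form, the joint form included, in 7.81%. The other 3 matches are on the opposite strand. Srxn1 also has the AP-1 core at -45 and -102 from its start. The letters of the core were not in the windows of Nqo1 and Slc7a11. In Me1 and Txnrd1 the match is in 1 of several annotated starts. A match is a description of the letters alone.

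Outside the 9 targets, 8 further lists of the pathway held 107 measured genes of 117. They were chosen with earlier results of these data known, so their shares are a description and not a test. Of the 107 genes, limma called 10 higher and 0 lower in H2, or 9.35%, where 2.89% of all genes were called higher. In all lesions 2 were called higher, where 0.291% of all genes were called in either direction. In H1 0 were called by limma, with 7 higher (1.85% of all genes) and 2 lower (2.39% of all genes) below 0.05 before adjustment. With array spread as a covariate 0 of the 10 kept their call in H2, and with the type 2 marker level 2 did, Mgst1 and Prdx3. The Actb 3′ to 5′ difference as a covariate left 2 and repeated quantile normalization 4. Without H2 replicate 5, 6 or 7, 3, 2 and 3 of the 10 were called. Over all genes limma called 525 higher and 90 lower in H2. These counts were 57 and 98 with array spread and 94 and 52 with the type 2 marker level. They were 74 and 18 with the Actb difference and 159 and 42 with repeated quantile normalization. Without H2 replicate 5, 6 or 7 they were 284 and 35, 108 and 16, and 102 and 17.

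Enzymes of detoxification gave 3 calls in H2 among 23 measured, all higher, where 2.89% of all genes were called higher. Their median difference was 0.46 (all genes -0.04). Mgst1, a membrane-bound glutathione transferase, rose by 2.65 ± 0.43 (limma adjusted p = 0.00661) and was called in 15 of 15 fits without 1 array. Its H2 arrays read 7.98 to 8.83 and its normal arrays 4.31 to 6.91, and it also passed in all lesions (2.21 ± 0.39, limma adjusted p = 0.0284), there in 6 of the 15. Its other probe set differed by -0.29 in H2. Ptgr1, which reduces reactive alkenals and prostaglandins, rose by 2.83 ± 0.52 (adjusted p = 0.0112), and the export pump Abcc4 by 0.70 ± 0.17 (0.0349), called in 14 and 7 of the 15.

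Peroxide and superoxide removal had the highest median, 1.48 over 6 genes in H2, with 2 called higher (2.89% of all genes). Catalase (Cat), which breaks down hydrogen peroxide, rose by 2.29 ± 0.52 (limma adjusted p = 0.0296), with H2 arrays from 8.45 to 8.96 and normal arrays from 4.59 to 7.58, and was called in 10 of 15 fits without 1 array. The other Cat probe set differed by 1.44 in H2. Sod2, the mitochondrial superoxide dismutase, rose by 2.54 ± 0.64 (0.0408) but was called in only 3 of the 15, and its other 3 probe sets differed by 0.14 to 1.20. In the thioredoxin and peroxiredoxin list 2 of 12 were called higher in H2 (2.89% of all genes). Prdx3, the mitochondrial peroxiredoxin, rose by 1.68 ± 0.30 in H2 (0.00976) and by 1.42 ± 0.27 in all lesions (0.0335), from a normal mean of 3.46, and was called in 15 and 6 of the 15. Sesn3, a sestrin, rose by 1.23 ± 0.32 in H2 (limma adjusted p = 0.0451, called in 5 of the 15), and its other probe set differed by -0.08.

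NADPH supply, the function of Me1, gave 2 calls in H2 among 15 genes, both higher (2.89% of all genes). The median of this list in H2 was 0.38. Idh1, the cytosolic isocitrate dehydrogenase that makes NADPH, rose by 3.26 ± 0.75 (limma adjusted p = 0.0308), with H2 arrays at 6.72, 7.71, 7.83 and 9.41 and normal arrays from 2.31 to 6.54, and was called in 10 of 15 fits without 1 array. The other Idh1 probe set differed by 1.42 in H2. Tkt, the transketolase of the pentose phosphate pathway, rose by 2.38 ± 0.60 (0.0402) and was called in 4 of the 15, but its other 2 probe sets differed by -0.08 and 0.17.

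Measured genes numbered 13 in the glutathione system, 11 in haem and iron handling, and 13 in cystine supply with ATF4 targets. In H2 limma called 0 genes of these lists (3.38% of all genes in either direction). Before adjustment 5, 3 and 4 were higher below 0.05 (12.7% of all genes), and 0 were lower in each list (8.7%). The list medians in H2 were 0.15, 0.42 and 0.35 in the same order. Gsr, which recycles oxidised glutathione, differed by 2.05 ± 0.67 in H2 (limma adjusted p = 0.0981), with -0.04 on its other probe set. Glo1, which clears methylglyoxal, differed by 2.20 ± 0.64 (0.0698), with 0.93, 0.07 and -0.16 on its other probe sets. Tfrc differed by 1.42 ± 0.40 (0.063). Its other probe sets differed by 1.50 (limma adjusted p over all probe sets = 0.0389) and 1.28 (0.375). The iron exporter Slc40a1 differed by 1.28 ± 0.54 (0.191), with 0.13 on its other probe set. Atf4, the stress factor that also drives Slc7a11, differed by 0.65 ± 0.27 (0.179), with 0.65 and 0.26 on its other probe sets. The serine synthesis enzyme Psat1 differed by 1.18 ± 0.33 (0.065), with 1.11 on its other probe set.

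**Figure D4:**
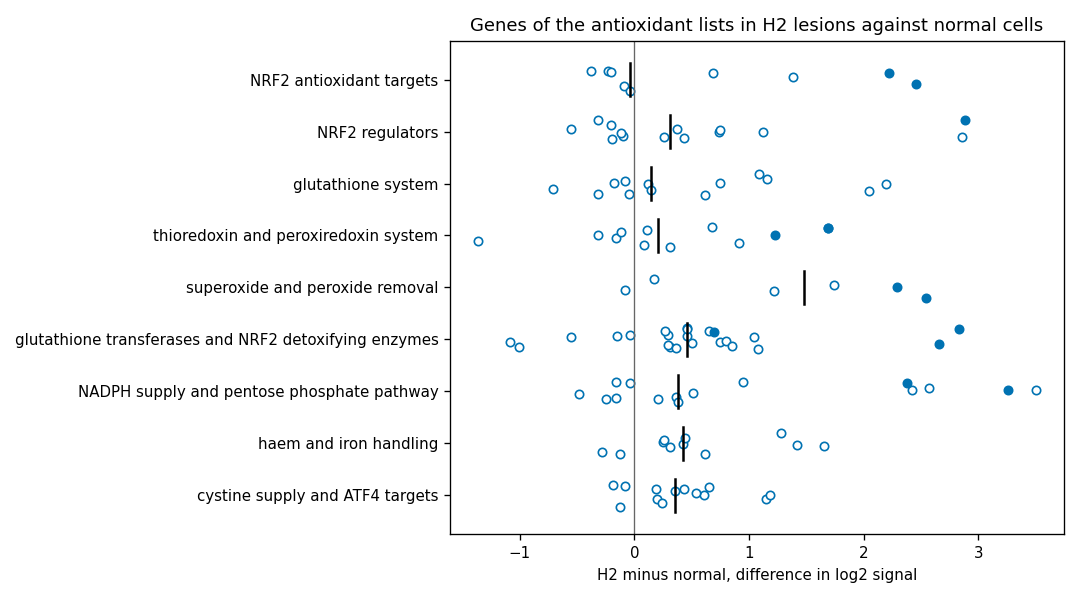
Difference in log2 signal, H2 minus normal (x axis), for each gene of the 9 target genes and the 8 further lists (y axis). Filled points passed limma at an adjusted p under 0.05 over all genes, open points did not, and the black line is the median of a list. The medians ran from -0.04 in the targets to 1.48 in peroxide and superoxide removal.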

How the data were processed

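The authors deposited log2 signals per probe set for 15 arrays, made with the affy package and RMA per the submitters' processing notes, with no version given. Per the labels' protocols, a PicoPure kit gave the RNA and WT-Ovation One-Direct the amplified product. RMA equalises probe intensities, not the spread of probe set summaries, so arrays of less RNA can show compressed differences. Of the probe sets, 64 array controls were left out. Symbols came from the platform annotation (34945 probe sets with 1 symbol, 932 with several, 9160 with none), and the probe set with the highest mean stood for a gene, which left 18193 genes. limma (version 3.58.1, R 4.3.3) was fitted to all genes, and separately to all 45037 probe sets, with 2 groups for lesions against normal and 3 groups for the other comparisons. P-values were Benjamini-Hochberg adjusted over all features of a comparison, and differences carry the SE of the fit. The fits were run on simulated data with independent noise for each gene and no shared array spread, cell content or animal. That run checks the code and cannot test for such array effects. The number of arrays limits the precision, and signals near background say little.

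The targets, lists and alternatives were chosen with earlier results of these data known. Named were all targets, Nfe2l2, Keap1 and Bach1, up to 4 called genes of each further list or, with none called, the 2 with the lowest p in lesions against normal, and the nearest gene of each target. Cul3 was added after its value was seen. Alternatives were centring of arrays, a further quantile normalization, dropping dim genes, averaging the probe sets of a gene, a trended and robust prior, weights for arrays, replicate numbers as blocks, covariates (array spread, the Actb 3′ to 5′ difference, and the type 2 marker level, added after the data were seen), leaving out the 2 normal arrays whose spread was narrowest, fits on 2 groups and leaving out each array. Samples sharing a replicate number did not deviate together in every pair (correlations over genes from -0.14 to 0.38), so the numbers were not used as pairs.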

Additional observations from a re-analysis of the deposited data

Results flagged for a closer look

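Among 36 groups of target probe sets tested for a value far from the others, 1 was found, where chance gives about 1 in 20. On the lower Me1 probe set, 1430307_a_at, H2 replicate 1 read 3.66, and the nearest other H2 array read 5.55. The gap was 0.898 of the range of the 4 arrays. On the main Me1 probe set the same array was also the lowest of H2, at 5.26.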

How the results depend on the processing

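The number of targets called in H2 against normal was 2. It was 1 with repeated quantile normalization and with only the 2 groups compared, and 0 with the replicate block, array spread, the Actb 3′ to 5′ difference or the type 2 marker level as covariates, and when the 2 normal arrays with the narrowest spread were removed. For probe sets it was 1, against 2 over probe sets with 1 gene symbol and 0 with the replicate block or array spread. With the replicate block Me1 differed by 2.32 (limma adjusted p = 0.0953) and Gsta4 by 2.17 (0.196). The block also left 0 of the 10 further pathway calls in H2, with Mgst1 at 2.13 (0.0836) and Prdx3 at 1.64 (0.109). In all lesions the count was 0, and 3 with array weights (Gclc, Me1 and Gsta4). Leaving out each array gave 0 to 3 targets and 0 to 3 probe sets in H2, 0 to 2 targets and 0 to 1 probe sets in all lesions, and 0 in H1 against normal and H1 against H2. Of 407 target differences under the other alternatives, 41 changed sign, and with 1 array left out 26 more did; none was past the threshold on either side, so their direction was not settled. Me1, Gsta4 and Gclc kept their direction against normal in every alternative run. The filter on dim genes left Nqo1, Hmox1, Gclm and Slc7a11 without values. Over all genes, H2 called 525 higher and 90 lower, and 57 and 98 with array spread as a covariate, 34 and 5 with the replicate block, and 1586 and 613 with array weights. Without H2 replicate 7 it called 102 and 17, and without normal replicate 3 it called 1104 and 274. All lesions against normal called 51 higher and 2 lower over all genes. That became 208 and 14 with array weights, and 229 and 9 without H1 replicate 2. The cause of these changes was not tested.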
